A study of Mus musculus with 6 samples.

Results

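The regions described here are places in the mouse genome where the chromatin remodeller CHD7 and acetylated histone H3 lysine 27 (H3K27ac) were both found close to an end of a protein-coding gene. They were chosen from peak lists of chromatin immunoprecipitation with sequencing (ChIP-seq), in which fragments bound by an antibody are sequenced and places with an excess of fragments are called as peaks. Overlapping peaks of an antibody's libraries were merged into a consensus region, provided that each library contributed a peak. A CHD7 consensus region was taken if it lay within 1 kb of either end of a RefSeq protein-coding gene, overlapped an H3K27ac consensus region by at least 1 bp and overlapped no input peak. This gave 8183 regions out of 19947 CHD7 consensus regions (41.0%), on chromosomes 1 to 19 and X. Another 14 regions met the first 2 conditions and were left out for an input peak.

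The cells came from mouse embryos at stage E10.5, from Wnt1-Cre2 males crossed with mTmG females, and were sorted from pharyngeal arches 3 to 6 by green fluorescence. Wnt1-Cre2 drives recombination in the Wnt1 lineage, which includes the neural crest, and mTmG turns on green fluorescent protein in recombined cells. The sort was thus for that lineage in these arches. No group of Cre-negative cells was included, and the purity of the sort was not tested. The 3 groups shared this genotype, stage and sort, and each had 2 libraries: chromatin precipitated for CHD7, chromatin precipitated for H3K27ac, and input chromatin. No mutant was studied, and whether libraries of the same group stem from different litters or sorts is not stated, so a spread between them may be technical.

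CHD7 is an ATP-dependent chromatin remodeller of the chromodomain helicase family, and loss of 1 copy of the human gene causes CHARGE syndrome, in which outflow tract and arch artery defects of the heart are frequent. H3K27ac is deposited by the acetyltransferases p300 and CBP on nucleosomes beside active promoters and enhancers. Active promoters typically hold a stretch without nucleosomes at the transcription start, flanked by positioned and acetylated nucleosomes, and most promoters of broadly used genes lie in CpG islands.

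The promoters of the strongest regions differed widely in sequence. To show this, 230 bases (200 before to 30 from the start) are given in the direction of transcription for the 4 regions with the highest mean CHD7 fold whose RefSeq promoter window lay wholly inside the region and for Tgfbr2, the outflow tract gene with the highest such fold. The promoters of Atp5e, Akap8 and Epn1 were added after the motif shares were seen, as the regions with the highest CHD7 fold that hold an ETS core. The sequences are from RefSeq on mm10. Capitals mark matches, on either strand, to any of 12 motifs that are named with the shares further on.
Zfp280d (chr9:72274688-72274917, plus strand): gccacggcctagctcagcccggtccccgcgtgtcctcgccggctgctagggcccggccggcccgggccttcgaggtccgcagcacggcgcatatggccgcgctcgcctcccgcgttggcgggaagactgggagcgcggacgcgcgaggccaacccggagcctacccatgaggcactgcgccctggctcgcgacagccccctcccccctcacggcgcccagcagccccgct
H4f16 (chr6:136804402-136804631, minus strand): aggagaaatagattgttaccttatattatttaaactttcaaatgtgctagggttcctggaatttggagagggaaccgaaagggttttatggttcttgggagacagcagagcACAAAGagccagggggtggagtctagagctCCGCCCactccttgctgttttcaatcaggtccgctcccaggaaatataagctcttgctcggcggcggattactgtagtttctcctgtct
Slc10a7 (chr8:78509128-78509357, plus strand): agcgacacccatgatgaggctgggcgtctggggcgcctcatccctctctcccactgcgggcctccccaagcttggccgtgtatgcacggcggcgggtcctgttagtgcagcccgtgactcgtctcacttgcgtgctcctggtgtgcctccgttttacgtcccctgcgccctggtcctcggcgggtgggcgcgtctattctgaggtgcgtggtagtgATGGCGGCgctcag
Tesmin (chr19:3388657-3388886, plus strand): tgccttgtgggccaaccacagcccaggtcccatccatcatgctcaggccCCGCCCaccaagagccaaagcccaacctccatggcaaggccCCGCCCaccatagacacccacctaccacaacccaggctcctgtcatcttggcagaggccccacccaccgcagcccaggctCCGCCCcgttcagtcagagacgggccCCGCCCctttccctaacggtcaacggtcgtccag
Tgfbr2 (chr9:116175334-116175563, minus strand): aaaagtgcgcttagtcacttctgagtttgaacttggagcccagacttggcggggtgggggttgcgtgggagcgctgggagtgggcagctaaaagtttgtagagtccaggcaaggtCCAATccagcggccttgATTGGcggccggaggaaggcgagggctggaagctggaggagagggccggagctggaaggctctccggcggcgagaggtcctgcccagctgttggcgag
Atp5e (chr2:174464072-174464301, minus strand): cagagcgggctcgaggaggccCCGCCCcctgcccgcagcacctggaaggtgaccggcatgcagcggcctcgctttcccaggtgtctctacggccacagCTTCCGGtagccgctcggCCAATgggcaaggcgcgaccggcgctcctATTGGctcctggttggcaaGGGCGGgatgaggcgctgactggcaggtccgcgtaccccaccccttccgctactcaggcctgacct
Akap8 (chr17:32321209-32321438, minus strand): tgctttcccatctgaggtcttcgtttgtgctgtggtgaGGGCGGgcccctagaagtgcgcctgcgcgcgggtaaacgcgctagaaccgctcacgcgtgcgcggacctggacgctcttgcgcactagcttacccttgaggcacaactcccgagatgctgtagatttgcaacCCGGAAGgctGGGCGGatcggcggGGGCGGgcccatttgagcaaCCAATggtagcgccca
Epn1 (chr7:5080035-5080264, plus strand): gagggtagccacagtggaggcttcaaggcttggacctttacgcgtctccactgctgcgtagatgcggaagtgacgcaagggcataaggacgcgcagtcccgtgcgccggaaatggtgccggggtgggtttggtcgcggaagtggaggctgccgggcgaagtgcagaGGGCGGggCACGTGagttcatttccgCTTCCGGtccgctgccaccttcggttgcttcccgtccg

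Zfp280d, a zinc finger gene, had 31 CpG dinucleotides in its 230 bases and no match to the 12 motifs. H4f16, a histone H4 gene, had 6 CpG dinucleotides, a GC box and a SOX core. Slc10a7, a gene of the bile acid transporter family, held a YY1 core a few bases from the printed 3′ end, and the promoter of Tesmin, a gene first described in testis, held 4 GC boxes. The promoter of Tgfbr2, the type II receptor of TGF-beta, held 2 CCAAT boxes in opposite directions. Atp5e, a subunit of the mitochondrial ATP synthase, Akap8, a nuclear anchoring protein, and Epn1, an endocytic adaptor, each held 1 ETS core and at least 1 GC box. These matches describe the letters only.

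The regions lay almost always at gene starts rather than gene ends. Strand could be taken from the RefSeq promoter table for all genes within 1 kb of 6497 regions. Of these regions, 5965 lay at a start alone (91.8%), 421 at a start and an end (6.48%) and 111 at an end alone (1.71%). A start was thus within 1 kb of 98.3% of the regions (95% Clopper-Pearson interval 97.9% to 98.6%, counting error only, over regions that are not independent). H3K27ac was present at 80.4% of the 10178 boundary CHD7 regions without an input peak. Among the boundary CHD7 regions without H3K27ac the share was 74.7% (72.4% to 76.8%), and 391 of 1543 (25.3%) lay at an end alone. Among boundary H3K27ac regions without CHD7 it was 97.2% (96.5% to 97.8%). A high share at starts was thus common to boundary regions with H3K27ac, with or without CHD7.

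**Figure D1:**
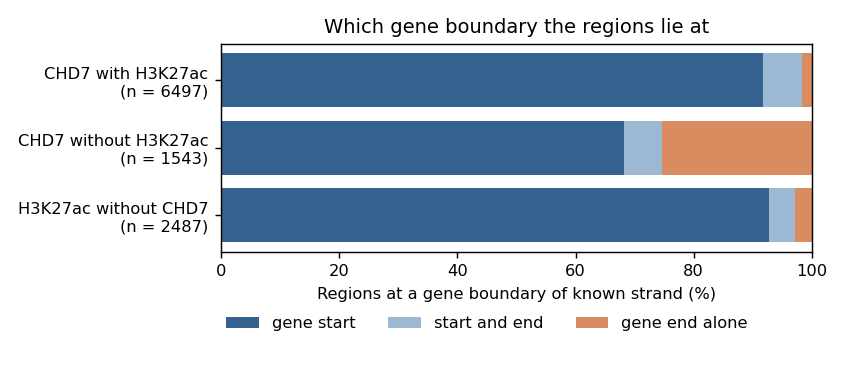
Share of gene-boundary regions, in percent of regions with known strand, at a gene start, at a start and an end, and at an end alone. The bars are regions with CHD7 and H3K27ac (98.3% with a start), with CHD7 without H3K27ac (74.7%) and with H3K27ac without CHD7 (97.2%), and the end-alone part is widest for CHD7 without H3K27ac.

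The same held within each CHD7 library. A start was within 1 kb of 98.3% and 98.4% of boundary CHD7 peaks with H3K27ac in libraries 1 and 2, against 73.6% and 76.0% of those without. The means were 98.4% ± 0.0414 with and 74.8% ± 1.68 without H3K27ac (SD, n = 2 libraries), a difference of 23.5 percentage points. Each library gives both values, so values were swapped within a library in the exact permutation test (two-sided), and its p of 0.5 is the smallest that 2 libraries allow. The share was higher with H3K27ac in both libraries. Of 7 features compared in this way, 6 had that p and 1 had a p of 1, so none could pass a correction for 7 tests.

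Of the 111 regions at a gene end alone, 17 (15.3%) had another start listed in the promoter table within 1 kb. The 111 regions had a median fold of 3.52 and 3.48 for CHD7 and 4.04 and 4.02 for H3K27ac in libraries 1 and 2. Regions at a start without a divergent partner had medians of 3.69 and 3.69 for CHD7 and 4.94 and 4.80 for H3K27ac. Among 11079 genes longer than 10 kb with known strand, 4885 (44.1%) had a region at their start and 291 (2.63%) at their end, and 157 had both. Many genes thus carried CHD7 with H3K27ac at the start and not at the end, and 134 carried it at the end alone. A region counted at a gene's end can also lie at the start of a neighbouring gene, and such regions were not set apart.

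Divergent promoters, where starts on opposite strands point away from each other within 1000 bp, were within 1 kb of 516 regions (7.94%). CHD7 boundary regions without H3K27ac had them in 4.15% of cases. Per library the share was 7.87% ± 0.186 for peaks with and 3.86% ± 0.267 for peaks without H3K27ac (SD, n = 2; exact permutation within libraries, p = 0.5, two-sided). The start of an annotated long noncoding RNA lay within 1 kb of 833 regions (10.2%), against 121 CHD7 boundary regions without H3K27ac (6.07%), and a miRNA gene within 1 kb of 76 (0.929%), against 18 (0.902%). The shares at divergent and noncoding starts were thus higher with H3K27ac, and the miRNA shares were close. Of regions with a start, 516 of 6386 with H3K27ac had divergent promoters, against 64 of 1152 without it. That difference was smaller than the one over all regions of known strand. The genes at peaks had a median length of 24.1 ± 0.192 kb with and 21.7 ± 0.328 kb without H3K27ac (SD, n = 2 libraries; exact permutation within libraries, p = 0.5). Where promoters were instead sorted into classes by consensus regions, the medians were 23.9 kb with both and 24.7 kb with CHD7 without H3K27ac. The direction of the length difference thus depended on how genes were counted.

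The regions lay at 8237 of 21776 protein-coding genes (37.8%). A single gene lay within 1 kb of 6665 regions (81.4%), 2 genes of 1469 (17.95%) and 3 genes of 47. The region with most genes lay at the shared 3′ end of the gamma protocadherin cluster, cell adhesion genes that share their last exons (chr18:37841496-37842133), with 24 genes, CHD7 folds of 4.98 and 4.78 and H3K27ac folds of 4.65 and 3.30. The next were a region near Frs3, Tomm6, Prickle4, Gm20517 and Usp49 with 5 genes and one near Timm13, Lmnb2 and Tmprss9 with 3. In the other direction, 6758 genes had 1 region, 1423 had 2 and 55 had 3, and Tut1, a terminal uridylyltransferase gene of 12379 bp, had 4.

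The H3K27ac signal covered most of each region. H3K27ac regions covered 3539 of the 8183 CHD7 regions over their whole length (43.2%) and 7887 over at least 50% of it (96.4%), with a median of 97.4%. They covered less than 10% of 18 regions. The smallest overlaps were 1 bp at Gle1, an mRNA export factor, and 3 bp each at Edaradd, a signalling adaptor of skin appendages, and Greb1l. The CHD7 regions had a median width of 708 bp (291 to 3196 bp), and the largest H3K27ac region over each was wider in 5731 cases (70.0%), with a median of 886 bp. The 5 widest were at the histone genes H2ac23, H2ac24, H2ac20 and H2ac6, each beside other histone genes, and at Lpar6, a lysophosphatidic acid receptor gene.

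The peak summit, the base of highest signal in a peak, was placed relative to the nearest gene start for 6478 regions with a start of known strand. The median summit was 219.5 and 218 bp downstream of the start in CHD7 libraries 1 and 2, against 232 and 235 bp in H3K27ac libraries 1 and 2. The mean of the library medians was 219 ± 1.06 bp for CHD7 and 234 ± 2.12 bp for H3K27ac (SD, n = 2 each). The median CHD7 position was thus less far downstream (CHD7 minus H3K27ac −14.75 bp), by more than the spread within either group, with an exact permutation p of 0.33 (two-sided), the smallest possible with 2 against 2 libraries. This is a position along the strand and not a distance. Regardless of side, the median distance from the start was 316 and 304 bp for CHD7 and 302 and 307 bp for H3K27ac (exact permutation p = 0.67), and 80.4% and 82.9% of CHD7 and 84.8% and 84.4% of H3K27ac summits lay within 500 bp. The difference in position is small beside the distance between summits of the same region in libraries of 1 antibody, which had a median of 56 bp for CHD7 and 43 bp for H3K27ac. The submitters' peak lists do not state the fragment length that places a summit.

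Summits of both antibodies were rare at the start itself and lay on either side of it. The most frequent position was 250 to 300 bp downstream in all 4 libraries, with 12.1% and 13.1% of CHD7 summits and 15.7% and 14.7% of H3K27ac summits. A lower peak lay upstream, at 400 to 450 bp in CHD7 library 1 and at 350 to 400 bp in the other libraries, with 3.81% and 3.94% of CHD7 and 3.52% and 4.03% of H3K27ac summits per 50 bp. Around the start, 50 bp held 1.07% and 1.17% of CHD7 summits and 0.988% and 1.09% of H3K27ac summits. Of all summits, 67.2% and 67.7% of CHD7 and 69.2% and 69.6% of H3K27ac summits lay downstream, and between 4.37% and 5.05% lay within 100 bp of the start.

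**Figure D2:**
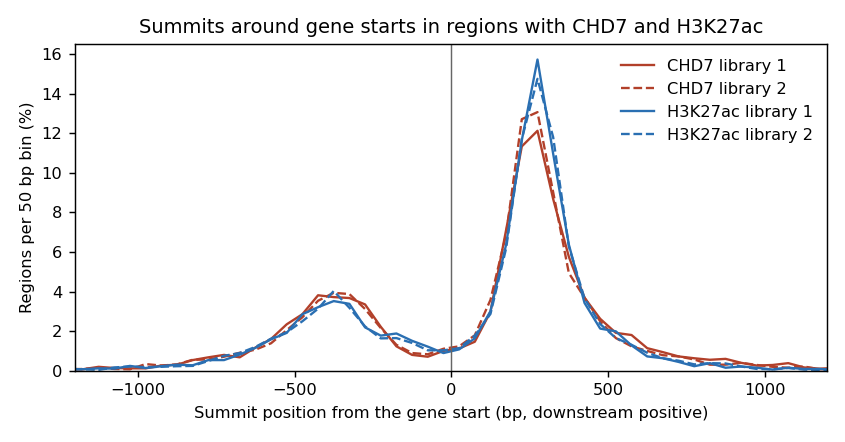
Position of the peak summit relative to the gene start (bp, downstream positive), as the percent of 6478 regions with CHD7 and H3K27ac per 50 bp, 1 line for each of the 2 CHD7 and 2 H3K27ac libraries. All 4 lines have their main peak at 250 to 300 bp, a lower one between 350 and 450 bp upstream, and a trough of about 1% at the start.

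CHD7 and H3K27ac summits lay on the same side of the start in most regions. Among 4967 regions with a single listed start within 1 kb, this held in 87.4% to 88.4% of cases over the 4 pairs of libraries. The CHD7 libraries shared a side in 94.2% of cases and the H3K27ac libraries in 94.7%. The median distance between a CHD7 and an H3K27ac summit was 67 to 73 bp. Among the printed promoters, CHD7 summits lay 220 and 224 bp downstream of the start at H4f16, 280 and 286 bp at Tesmin, 228 and 243 bp at Akap8, 298 and 255 bp at Atp5e, 110 and 141 bp at Epn1 and 588 and 322 bp at Tgfbr2. At Zfp280d and Slc10a7 they lay upstream, at −215 and −208 bp and at −195 and −179 bp, and the H3K27ac summits of Slc10a7 lay at −192 and −716 bp.

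Without H3K27ac, CHD7 summits at gene starts had no such lean to the downstream side. In 1136 boundary CHD7 regions without H3K27ac the median summit was 56.5 and 9.5 bp downstream in CHD7 libraries 1 and 2, and 51.4% and 50.3% of summits lay downstream. The share downstream was 67.5% ± 0.349 in regions with H3K27ac and 50.8% ± 0.809 in regions without it (SD, n = 2 CHD7 libraries), a difference of 16.6 percentage points. Between 100 and 500 bp downstream it was 55.3% ± 1.41 with and 35.8% ± 0.498 without. Both shares were higher with H3K27ac in both libraries, at an exact permutation p of 0.5 within libraries (two-sided), the smallest possible. The share within 100 bp of the start was 4.71% ± 0.480 with and 4.75% ± 0.124 without H3K27ac (exact permutation within libraries, p = 1). In 2421 boundary H3K27ac regions without CHD7, H3K27ac summits had medians of 217 and 219 bp and 64.3% and 63.7% lay downstream. This comparison was added after the positions had been seen.

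The promoters of the regions were rich in CpG. Over 6284 RefSeq promoter windows (300 bp, from 250 bp before to 50 bp after the start) whose start lay within 1 kb of a region, the median ratio of observed to expected CpG was 0.817, and 83.5% of windows were above 0.6, a usual limit for CpG islands. The median ratio was 0.703 in 756 windows with CHD7 without H3K27ac, 0.731 in 1504 with H3K27ac without CHD7, 0.216 in 8263 with neither and 0.577 in all 17492. The shares above 0.6 were 65.7%, 69.1%, 13.4% and 48.4% in that order. The windows with both thus had the highest CpG ratio of these classes. Median GC content was 62.3% with both, 61.7% with CHD7 without H3K27ac and 48.7% with neither. Per CHD7 library, the median CpG ratio at peaks was 0.813 ± 0.00322 with and 0.771 ± 0.0123 without H3K27ac (SD, n = 2; exact permutation within libraries, p = 0.5, two-sided), and GC content was 62.2% in both (p = 1). A window near several peaks counts for each of them, so peaks without H3K27ac here include windows that also have a peak with it.

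The 12 motifs were searched on both strands of the 300 bp windows. The CCAAT box (CCAAT, bound by NF-Y) was in 39.7% of the windows with CHD7 and H3K27ac and in 39.2% of all windows. The GC box (GGGCGG, bound by SP and KLF factors) was in 70.1% and 46.3%. The ETS core (CCGGAAG, bound by ETS factors) was in 21.1% and 11.9%, and the YY1 core (ATGGCGGC) in 6.11% and 3.21%. The palindromic NRF1 site was in 2.74% and 1.33%, the core of the cyclic AMP response element (TGACGTC) in 6.59% and 3.98%, the E-box CACGTG in 11.04% and 7.91%, and the ZNF143 site in 0.780% and 0.440%. The TFAP2 site (GCCNNNGGC) was in 26.9% and 19.6%. Motifs rich in A and T were less frequent with both marks, with the TATA box (TATAAA) in 5.97% and 13.3%, the homeobox core (TAATTA) in 1.96% and 4.69% and the SOX core (ACAAAG) in 12.8% and 16.8%. Several of these differences were small among windows with a CpG ratio above 0.6, an alternative added after seeing the data. There the TATA box was in 5.43% with both marks and 5.85% of all such windows, and the SOX core in 11.6% and 11.1%. The TFAP2 site was in 29.1% and 29.3%, the E-box in 11.75% and 11.5% and the homeobox core in 1.6% and 2.01%. Some motifs can overlap within a promoter, and shares of all windows include those of the regions.

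**Figure D3:**
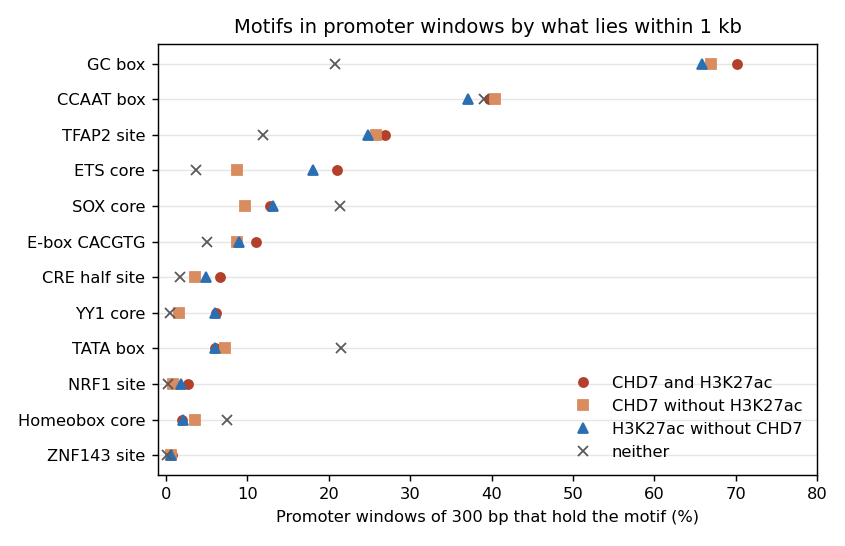
Percent of 300 bp RefSeq promoter windows that hold each of 12 motifs, by what lies within 1 kb of the gene start: CHD7 and H3K27ac (6284 windows), CHD7 without H3K27ac (756), H3K27ac without CHD7 (1504) or neither (8263). ETS core and YY1 core stand high in both classes with H3K27ac (21.1% and 18.02% for the ETS core) and lower with CHD7 alone (8.73%), and the CCAAT box is at 37.1% to 40.5% in all 4.

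The ETS and YY1 cores were more frequent in both classes with H3K27ac than with CHD7 alone. The ETS core was in 21.1% of windows with both, 8.73% with CHD7 without H3K27ac, 18.02% with H3K27ac without CHD7 and 3.74% with neither. The YY1 core was in 6.11%, 1.59%, 6.05% and 0.508% of these classes in that order. CpG content differed between the classes, so the shares were also taken among windows with a CpG ratio above 0.6, an alternative added after seeing the data. There the ETS core was in 22.9% of windows with both, 10.3% with CHD7 without H3K27ac, 21.1% with H3K27ac without CHD7 and 9.56% with neither, whereas the GC box was in 74.6%, 78.3%, 74.1% and 69.0%. At high CpG the GC box share with both marks was thus below that with CHD7 without H3K27ac and above that with neither, and the ETS share stayed above both. Per CHD7 library the ETS core was in 21.04% ± 0.422 of windows at peaks with and 14.4% ± 0.580 at peaks without H3K27ac, and the CCAAT box in 39.6% ± 0.142 and 42.7% ± 0.114 (SD, n = 2; exact permutation within libraries, p = 0.5 for both, two-sided).

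Motif presence went with small differences in fold. Regions whose window held an ETS core had median CHD7 folds of 3.80 and 3.81 in libraries 1 and 2, against 3.74 and 3.74 without it, and median H3K27ac folds of 5.11 and 4.96 against 5.004 and 4.84. With a YY1 core the H3K27ac medians were 5.499 and 5.29, against 5.01 and 4.85 without it. From the lowest to the highest decile of CHD7 fold, the share of windows with an ETS core was 15.4% and 23.2%. The CpG ratio was 0.818 and 0.824 in these deciles. These are descriptions of windows, which are not replicates.

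Fold enrichment, a ratio that the authors' peak caller gives at the summit, was part of the choice of regions through the peak calls and is given as a description. The median CHD7 fold was 3.68 and 3.67 in CHD7 libraries 1 and 2 (1.90 to 10.3 and 1.72 to 9.25), and the median H3K27ac fold was 4.89 and 4.77 in H3K27ac libraries 1 and 2, with highest values of 11.9 and 12.1. CHD7 boundary regions without H3K27ac had CHD7 medians of 3.16 and 3.09. H3K27ac regions that overlapped these regions had H3K27ac medians of 4.85 and 4.71, against 3.77 and 3.73 at boundaries without CHD7. Each mark was thus stronger where the other was also called, in each library.

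Regions with a higher CHD7 fold tended to have a higher H3K27ac fold, with wide scatter. Across the 8183 regions the Spearman rho between CHD7 libraries was 0.58 and between H3K27ac libraries 0.78, and between a CHD7 and an H3K27ac library it was 0.33 to 0.40. The points of a pair share their libraries, and the scale of fold differs between libraries, so these are descriptions. Over deciles of mean CHD7 fold, the median H3K27ac fold of libraries 1 and 2 was 3.95 and 3.93 in the lowest decile and 6.20 and 5.98 in the highest. Of the 818 regions in the highest decile of CHD7, 274 (33.5%) were in the highest decile of H3K27ac and 15 in the lowest, and 26 regions in the lowest decile of CHD7 were in the highest of H3K27ac.

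**Figure D4:**
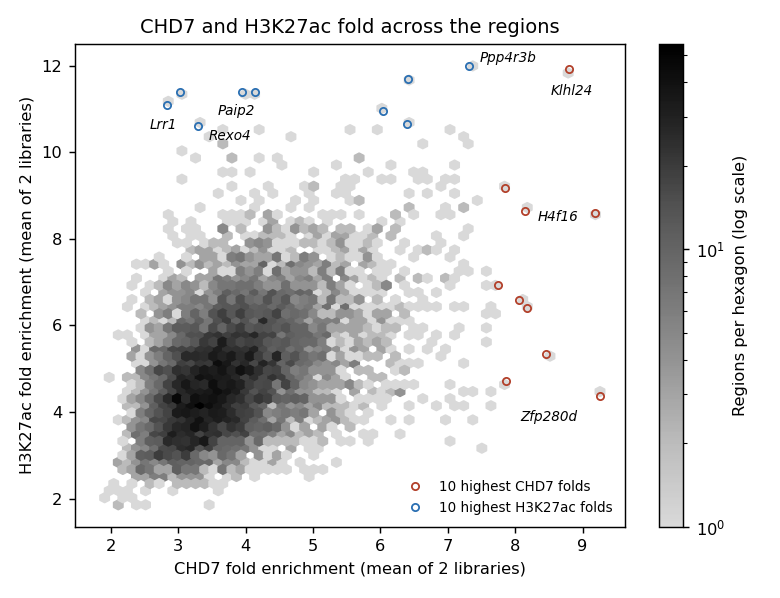
Mean H3K27ac fold enrichment against mean CHD7 fold enrichment (each over 2 libraries) for the 8183 regions, shaded by the number of regions per hexagon on a log scale. Circles mark the 10 regions with the highest CHD7 fold and the 10 with the highest H3K27ac fold, and only Klhl24 belongs to both sets, drawn as a CHD7 circle.

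The strongest CHD7 regions reached folds of 7.75 to 9.26 as means of both libraries. Zfp280d (chr9:72274358-72274960) had CHD7 folds of 10.3 and 8.26 and H3K27ac folds of 4.25 and 4.51, which placed it first for CHD7 and in decile 4 of 10, from the lowest, for H3K27ac. H4f16 had 9.12 and 9.25 for CHD7 and 9.33 and 7.85 for H3K27ac. Klhl24 (chr16:20097486-20098165), a substrate adaptor of a ubiquitin ligase, had 9.75 and 7.84 for CHD7 and 11.8 and 11.99 for H3K27ac, high for both. The divergent starts of Rbmxl1 and Slc10a7 had 8.74 and 8.17 for CHD7 and 4.87 and 5.82 for H3K27ac. Of the others, the starts of Mkks, a chaperonin-like gene, and Slx4ip, of Zfp869, Plekhg1 and Tesmin and the boundaries of Dyrk1b with Fbl (the nucleolar methyltransferase fibrillarin) and Poldip3 had mean CHD7 folds of 7.75 to 8.17 and mean H3K27ac folds of 4.71 to 9.18. The 10 strongest for CHD7 thus lay in H3K27ac deciles 4 to 10, most of them in deciles 9 and 10.

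The strongest H3K27ac regions were also not all strong for CHD7. Ppp4r3b (chr11:29172958-29173514), a regulatory subunit of protein phosphatase 4, had CHD7 folds of 8.54 and 6.08 and H3K27ac folds of 11.9 and 12.1. Usp48, a deubiquitinase gene, Zfp2 and Srsf5, a splicing factor gene, had mean CHD7 folds of 6.41, 6.03 and 6.40. Lrr1 (chr12:69168108-69169329), a substrate receptor of a replication-linked ubiquitin ligase, had CHD7 folds of 2.47 and 3.20, in the lowest decile, and H3K27ac folds of 11.6 and 10.6. Rexo4, an exonuclease gene, had mean folds of 3.29 for CHD7 and 10.6 for H3K27ac. Paip2, a translation regulator, had means of 3.95 and 11.4. Nup85, a nuclear pore subunit, had 2 CHD7 regions under the same H3K27ac region, with mean CHD7 folds of 4.14 and 3.02.

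The weakest CHD7 regions by mean fold were at H2bc7 with H2ac7 (1.95 and 1.72 in CHD7 libraries 1 and 2), at the neural transcription factor gene Sox11 (2.06 and 1.85) and at the ribosomal protein gene Rps25 (1.90 and 2.08). Their H3K27ac folds were 2.04 and 2.09, 2.45 and 1.93, and 4.52 and 4.89. No gap in distance lay at the limit of 1 kb. The 3 regions nearest inside it, at Tsc22d2, Wars2 and Usp18, lay 998 bp from a boundary with mean CHD7 folds of 2.502, 4.12 and 4.89, and the 3 nearest outside it, at Pum2, Dcaf5 and Rnf123, lay 1001, 1002 and 1002 bp away with 2.61, 3.84 and 2.74. Within the limit, 161 regions lay over 800 bp from a boundary, and 134 others with both marks lay outside it by at most 1200 bp from a boundary, while 2827 regions (34.5%) contained a boundary.

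The chromosomes differed in how many of their genes had a region. The share was 28.05% of 2025 genes on chromosome 7 and 48.3% of 511 on chromosome 18, the lowest and highest autosomes. On the X chromosome it was 98 of 963 genes (10.2%), and on the Y chromosome 0 of 253. Of boundary CHD7 regions on the X, 82.9% had H3K27ac, against 80.4% of all boundary CHD7 regions. Median folds on the X were 3.70 and 3.67 for CHD7 and 4.82 and 4.68 for H3K27ac, close to those of all regions. The regions on the X were thus few. Their CHD7 medians were not lower, and their H3K27ac medians were slightly below the 4.89 and 4.77 of all regions.

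Gene lists differed widely in how often their genes had such a region. In 25 lists with 613 genes found, 310 genes had one, and 14 lists stood above and 11 below the 37.8% of all protein-coding genes. These counts describe the lists, without a test. The spliceosome and DNA replication lists stood highest. Such a region lay at 29 of 32 spliceosome genes (90.6%), 27 of 32 genes of DNA replication and repair (84.4%), 22 of 28 MAPK pathway genes (78.6%), 25 of 32 genes of RNA polymerase II and Mediator (78.1%), 14 of 19 tRNA synthetases, 26 of 36 cytoplasmic and 21 of 32 mitochondrial ribosomal proteins and 22 of 31 proteasome subunits.

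**Figure D5:**
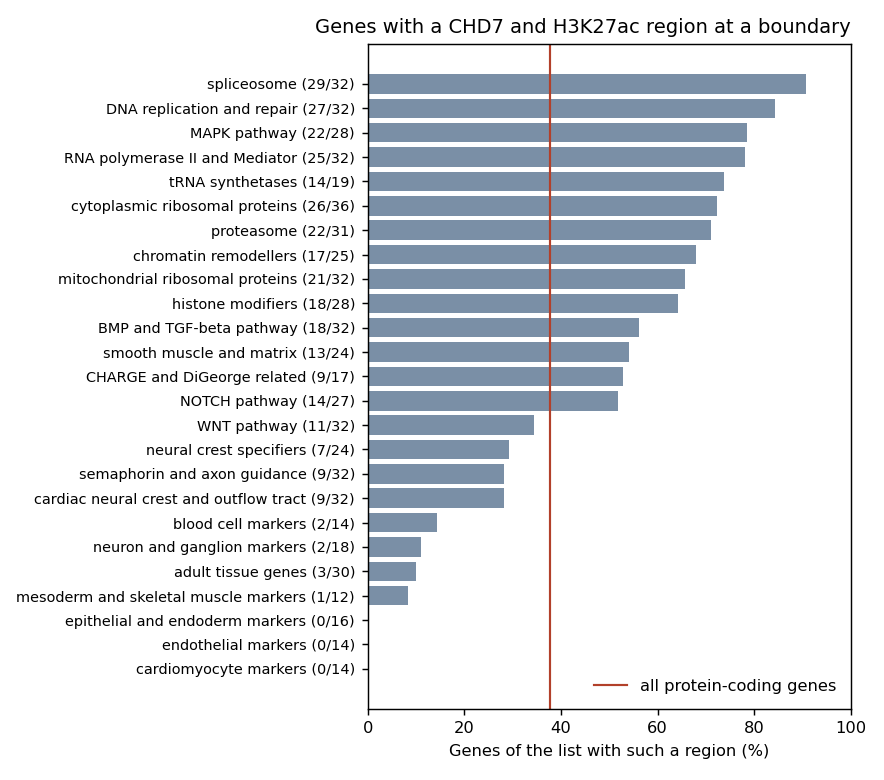
Percent of the genes of each of 25 lists that had a region with CHD7 and H3K27ac within 1 kb of a boundary, with the counts in brackets. The vertical line marks all protein-coding genes (37.8%), and the bars run from 90.6% for the spliceosome to 0 for cardiomyocyte, endothelial and epithelial markers.

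In the lists of splicing, replication, transcription, translation and the proteasome, the highest CHD7 folds were at U2af2, which recognises the 3′ splice site (5.79 and 8.21 in CHD7 libraries 1 and 2, a region shared with Epn1), at Mcm3, a subunit of the replicative helicase (6.59 and 7.19), and at Mars1, the methionyl tRNA synthetase (8.05 and 6.05). Polr2e, Rpl4, Mrpl1 and Psmd3 led their lists, with CHD7 folds of 5.63 and 5.31, 6.25 and 5.58, 5.20 and 6.64, and 4.49 and 5.71. The cytoplasmic ribosomal protein genes had median H3K27ac folds of 6.45 and 7.04 in H3K27ac libraries 1 and 2, against 4.99 and 4.84 over all genes with a region. Their CHD7 medians of 3.80 and 3.56 lay at those of all such genes, 3.79 and 3.81. Spliceosome genes had medians of 3.99 and 4.05 for CHD7 and 5.99 and 5.60 for H3K27ac. Orc1 and Cdc6, which load the replicative helicase, had no such region.

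Chromatin genes also lay above the background. Regions were found at 17 of 25 remodellers (68.0%) and 18 of 28 histone modifiers (64.3%). Atrx, on the X chromosome, had CHD7 folds of 5.51 and 6.69 and H3K27ac folds of 9.66 and 9.11. Smarcc1 and Smarcc2, core subunits of the BAF complex, had CHD7 folds of 5.22 and 6.19 and of 5.26 and 5.15, close to the 5.11 and 5.20 of Ep400, the ATPase of the TIP60 complex. The acetyltransferase gene Kat7 had 6.04 and 6.71 for CHD7. Of the CHD family, Chd1, Chd4, Chd8 and Chd9 had a region, and Chd2, Chd3, Chd5, Chd6 and Chd7 had none. Among 17 genes related to CHARGE and DiGeorge syndromes 9 had one, led by the DiGeorge interval genes Ufd1 (5.31 and 4.68, shared with Cdc45), Gnb1l, Crkl and Dgcr8, and the arch transcription factor gene Tbx1 had none.

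In the BMP and TGF-beta, WNT and NOTCH pathways, 1 ligand gene had such a region. Among all protein-coding genes the share was 37.8%. These roles were grouped after the values had been seen, so the counts are descriptions. In the BMP and TGF-beta pathway (18 of 32 genes), 8 of 11 receptors and co-receptors and 5 of 8 SMAD proteins had one, against 1 of 8 ligands, Tgfb3. In the WNT pathway (11 of 32, but 18 without CHD7 replicate 1 and 19 with regions found in either library, which lie above the background) it was 6 of 9 receptors and co-receptors, 1 of 4 TCF and LEF factors and 0 of 5 ligands. In the NOTCH pathway (14 of 27) it was 4 of 5 subunits of gamma-secretase, the protease that releases the NOTCH intracellular domain, 2 of 4 receptors, 1 of 4 HES and HEY targets and 0 of 5 ligands. Of semaphorins 3 of 10 had one, and of plexins and neuropilins, their receptors, 2 of 9, both below the 37.8% of all genes. The other ligands of that list, Slit1, Slit2, Slit3, Efnb1 and Efnb2, had none. Of its other receptors, Robo1, Ephb2, Dcc and Unc5c had one, and Robo2, Epha3, Epha4 and Ephb3 had none. In the MAPK pathway (22 of 28) all 7 kinases of the list had one, as did 3 of 4 RAS proteins and 3 of 5 feedback inhibitors.

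The values of single pathway genes were moderate. Bmpr1a, a type I BMP receptor, had CHD7 folds of 4.79 and 4.17 and H3K27ac folds of 5.50 and 4.97, and Acvr2b, a type II activin receptor, had 4.47 and 4.26 and 5.76 and 5.63. Ski, a repressor of SMAD signalling, had 4.54 and 5.75 for CHD7. Wls, which carries WNT ligands to the cell surface, had 5.81 and 4.13 for CHD7, and Lrp6, a WNT co-receptor, had 3.72 and 4.10. Notch2 had 3.82 and 4.10 for CHD7 and 6.95 and 5.89 for H3K27ac, and the ligand genes Dll1 and Dll3 had H3K27ac without CHD7. Map2k2 (4.82 and 5.03), Sos2 and Nras led the MAPK genes, and Fgfr2 had CHD7 and H3K27ac at its boundaries but no region with both.

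At genes of the neural crest and outflow tract the shares were lower than that of all genes, a difference that was not tested. Such regions lay at 7 of 24 neural crest specifiers (29.2%), against 37.8% of all genes. They lay at 9 of 32 genes listed for the cardiac crest and the outflow tract (28.1%). Among specifiers they were Mycn, Myc, Sox5, Zeb2, Id1, Snai1 and Sox9, with low folds: Mycn had CHD7 folds of 3.35 and 3.05 and H3K27ac folds of 2.73 and 2.55, and Sox9 had 2.14 and 2.24 and 2.52 and 2.77. The medians of these 7 were 2.41 and 2.77 for CHD7 and 2.73 and 2.77 for H3K27ac, against 3.79 and 3.81 and 4.99 and 4.84 over all genes with a region. At Snai1 the region lay at the gene end. Sox10, Foxd3 and Tfap2a had none. With regions found in either library the counts were 11 of 24 specifiers and 14 of 32 crest and outflow tract genes. In that setting 10415 of 21776 protein-coding genes had a region, so these counts are not comparable with 37.8%. Beside the share of all genes in that setting, both lists were still lower, but by a smaller margin.

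Among outflow tract genes, Itgb1, the integrin beta 1 chain, had the highest CHD7 folds (5.10 and 5.51, with 6.36 and 7.07 for H3K27ac), followed by Bmpr1a, Tgfbr2 (4.36 and 3.82, with 5.83 and 5.48) and Nf1, a RAS inhibitor (3.80 and 3.94). Fn1, Sema3c, Tgfbr1, Cdh2 and Foxc2 were the others. The cardiac transcription factor genes Hand2, Hand1, Gata4, Gata6, Tbx20, Isl1 and Mef2c had none. Of semaphorin and axon guidance genes 9 of 32 had one, led by the semaphorin receptor gene Plxna1 (6.07 and 4.02), and of smooth muscle and matrix genes 13 of 24, among them Fbn1, the microfibril protein (3.84 and 3.97), and Mrtfb, a cofactor of serum response factor (4.31 and 3.47), but not the contractile genes Acta2 and Tagln.

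Markers of other cell types mostly lacked such regions, as did many markers of the sorted type. They lay at 0 of 14 cardiomyocyte, 0 of 14 endothelial, 0 of 16 epithelial and endoderm, 2 of 14 blood (Klf1 and Spi1), 2 of 18 neuron and ganglion (Elavl4 and Phox2a) and 1 of 12 mesoderm and muscle markers (Tcf15). The region of Phox2a lay at the gene end and was shared with Inppl1. Of 30 adult tissue genes 3 had one, at the gene end for Krt10 and Pomc and shared with Bmp1 for Sftpc. In a shorter set of defining markers, 1 of 16 for cardiac neural crest had a region (Sox9), and 2 of 24 for other cells (Klf1 and Elavl4). H3K27ac lay at 3 of the 16 (Twist1, Sox9 and Msx2) and at 4 of the 24 (Klf1, Krt8, Tubb3 and Elavl4). Among all 21776 protein-coding genes, 10372 had H3K27ac and 37.8% had a region, so both marker groups lay below these shares. The cell type thus rests on the sort, since in this shorter set crest markers did not stand out from those of other cells. In the longer lists, 7 of 24 neural crest specifiers had a region, a higher share than in each marker list of other cell types. H3K27ac lay at 11 of the 24 specifiers, and among these marker lists most often at neuron and ganglion markers (5 of 18). The part of other cells in the results was not tested.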

How the data were processed

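ChIP-seq peak lists of 6 libraries were used, 2 each for CHD7, H3K27ac and input. Per the submitters' processing notes, the build was mm10 and the tools included MACS2 2.1.2, Picard, Bowtie2 2.3.3.1 and bcl2fastq 2.18.0.12. Each deposited list belongs to 1 library. Per peak it gives the authors' fold enrichment, a ratio, and their p-value and q-value as −log10. The deposited lists also give an integer score and a summit offset. No source used here states whether input was the control of these calls. Read counts are not included, so depth is unknown and intervals cover counting of regions only.

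Summits of 1 interval were joined into 1 peak, peaks on placed chromosomes were kept, and overlap meant at least 1 bp. Gene ends came from a RefSeq table of mm10, and strand and promoters from the RefSeq promoter table, which covered 17492 of 21776 protein-coding genes. Comparisons between libraries used exact permutation tests (two-sided), whose smallest p is 0.33 for 2 against 2 libraries and 0.5 where values of the same library are compared. Clopper-Pearson intervals and Spearman rho came from SciPy 1.17.1. Named genes are the 10 regions highest in each fold, the 5 widest, the 3 nearest the limits, and the first of each list by CHD7 fold, with other genes named after their values were seen. Members and lists were chosen with earlier results of these data known. The scripts were tested on simulated data. Alternatives changed the boundary distance, the q-value limit, the overlap, the libraries required and the use of input. Some genes that the naming rule gives are not reported here.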

Additional observations from a re-analysis of the deposited data

How the results depend on the processing

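The number of regions stayed within 1.5 times of 8183 under each alternative but a −log10 q of at least 10, which left 1464 regions, 1738 genes and 77 of 310 list genes. With 1 library left out at a time, the counts were 8185 to 9731 regions, 8239 to 8937 genes and 310 to 345 list genes. Per list, 264 of 300 counts were within 1.5 times of those reported, and 22 of the 36 others came from the q limit. With 1 library left out, the WNT count was 18 without CHD7 replicate 1, the neuron count 4 without it, the mesoderm count 2 without CHD7 replicate 2 or H3K27ac replicate 2, and the endothelial count 1 without H3K27ac replicate 2. The share of boundary CHD7 regions with H3K27ac, 80.4%, was 82.0% within 500 bp, 78.1% within 2.5 kb, 76.0% with the q limit, 77.5% with at least 50% of the CHD7 region covered, 77.8% with regions found in either library, and 72.0% to 84.5% with 1 library left out, lowest without CHD7 replicate 2. The share at gene starts was 97.3% within 2.5 kb and 98.8% with the q limit, and 98.1% to 98.4% with 1 library left out. The cause of these changes was not tested.

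The median CHD7 summit position was less far downstream than that of H3K27ac under every alternative run, with differences of −19.25 to −12.5 bp, and never past the threshold, which 2 against 2 libraries cannot reach. With the replicate number as a block the difference was −14.75 bp, from −12.5 bp in pair 1 and −17 bp in pair 2 (exact permutation p = 0.5, two-sided). The numbers are not stated to pair the libraries.

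The strand was unknown for 1686 of 8183 regions, and shares at starts leave them out. Depth is unknown, so a gene without a region is one where none was called in these libraries.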
